A study of Mus musculus with 2 samples.

Results

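MicroRNA genes outside the Dlk1-Dio3 locus were examined in regenerating mouse muscle with and without an intact Mef2a gene. A gene was a member when a probe set carried exactly 1 symbol, that symbol began with Mirlet7 or with Mir and a digit, and the probe set lay outside the run of identifiers that covers the Dlk1-Dio3 region. This gave 258 of the 19938 genes with 1 symbol, from 263 probe sets, and set 42 microRNA genes of Dlk1-Dio3 apart. Of the 258 symbols, 4 are host transcripts of microRNAs (Mir100hg, Mir17hg, Mir670hg and Mir99ahg) and not hairpins.

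Both groups were mice of mixed 129Sv/C57BL6 strain, 2 to 4 months old and of both sexes. The right tibialis anterior muscle, a muscle of the shin, received 50 µl of 10 µM cardiotoxin, a venom peptide that kills muscle fibres and spares the satellite cells that rebuild them. Muscles were taken 7 days later from Mef2a +/+ (wild type) and Mef2a -/- animals, and RNA of 5 mice was pooled per genotype. Each pool was read on 1 Affymetrix array, so there are no replicates, no spread between mice is known and no test was made. Neither the extent of the Mef2a deletion nor the cells that carry it are described in the labels. The Mef2a probe set read 8.92 log2 units for wild type and 9.06 for the other pool, so it does not check the labels, and the second pool is called the labelled knockout. Every difference below is the log2 value of the labelled knockout minus that of the wild type pool.

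A microRNA is cut from a primary transcript by Drosha and Dgcr8, exported as a hairpin by Xpo5, trimmed by Dicer1 and loaded into an Argonaute protein, which it guides to target messages mainly through its seed, bases 2 to 8. Many hairpins lie in introns of host genes or in clusters cut from a shared transcript. In skeletal muscle Mir1a, Mir133 and Mir206 support differentiation or the growth of muscle cells, and Mir208 and Mir499 sit in introns of myosin heavy chain genes. MEF2 factors are known to act on an enhancer that lies between Mir1a-2 and Mir133a-1. Which RNA a probe set read (primary, hairpin or mature) is not given in the sources used here, and these forms cannot be told apart in the values.

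The RefSeq microRNA table of GRCm38.p6 held sequences for 229 of the 258 members, with 394 mature forms that carry 314 seeds, of which 63 were shared by several members. The muscle forms are shown because they are the best known microRNAs of this tissue. Capitals mark the seed, and all sequences run 5′ to 3′.
miR-206-3p, chr1:20679055-20679076, plus strand: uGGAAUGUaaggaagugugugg
miR-133b-3p, chr1:20682834-20682855, plus strand: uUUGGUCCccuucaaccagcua
miR-208a-3p, chr14:54949072-54949093, minus strand: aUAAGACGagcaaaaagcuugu
miR-499-5p, chr2:155622893-155622913, plus strand: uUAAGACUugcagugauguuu

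The hairpins of Mir692-1 and Mir692-2 are shown because the only member at least 1.5-fold apart among those with a measurable value was Mir692-1. Capitals mark the mature miR-692, which has the same letters in both hairpins. Each hairpin is 109 bases long, and they are 6 single-base edits apart.
Mir692-1, chr17:6895229-6895337, minus strand: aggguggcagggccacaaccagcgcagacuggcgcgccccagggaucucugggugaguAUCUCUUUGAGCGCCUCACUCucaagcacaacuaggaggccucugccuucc
Mir692-2, chr4:125504749-125504857, plus strand: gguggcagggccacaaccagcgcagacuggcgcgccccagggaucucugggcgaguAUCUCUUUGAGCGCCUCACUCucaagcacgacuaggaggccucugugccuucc

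The third set holds a cluster of chromosome 17 (Mir99b, Mirlet7e and Mir125a), 2 let-7 genes elsewhere that share a seed with Mirlet7e, and the chromosome 14 cluster of Mir15a and Mir16-1, because clusters and seed families divide these genes in different ways. Capitals again mark the seed.
miR-99b-5p, chr17:17830194-17830215, plus strand: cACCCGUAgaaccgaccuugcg
let-7e-5p, chr17:17830366-17830387, plus strand: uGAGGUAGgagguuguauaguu
miR-125a-5p, chr17:17830817-17830840, plus strand: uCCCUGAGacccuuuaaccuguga
let-7d-5p, chr13:48536078-48536099, minus strand: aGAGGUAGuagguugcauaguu
let-7i-5p, chr10:122985698-122985719, minus strand: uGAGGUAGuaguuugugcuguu
miR-15a-5p, chr14:61632075-61632096, minus strand: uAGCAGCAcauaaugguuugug
miR-16-5p, chr14:61631936-61631957, minus strand: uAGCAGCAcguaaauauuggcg

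Most microRNA genes gave low values. A gene was called measurable when at least 1 of its values was 4.395 log2 units or more. This floor is the median over the whole table. Of the 258 members 62 (24.03%) reached it, against 59.1% of all genes and 29 of the 42 Dlk1-Dio3 microRNA genes (69.0%). The other 196 members lay below it in both arrays, and their differences are given as values near the bottom of the scale.

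Among the 62 measurable members 44 read lower in the labelled knockout pool, 15 read higher and 3 were equal to within 0.0001. Their median difference was -0.17, against 0.03 over the 11787 measurable genes. The lower share was 71.0% of these members and 44.5% of all measurable genes. Counted after the values were seen, 57 of the 62 reached the floor in both pools, and 40 of these were lower and 14 higher, again with a median of -0.17. The other 5 reached it in 1 pool: Mir143, Mir16-1, Mir211 and Mir365-1 only in the wild type and Mirlet7c-1 only in the labelled knockout. The differences were small: without Mir692-1 they ran from -0.52 to 0.32, and the robust SD (from the median absolute deviation) was 0.20, against 0.28 for all measurable genes. In whole muscle, fewer cells of a type and less RNA per cell cannot be told apart.

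Past 1.5-fold there was 1 measurable member that was higher (1.61%), where 6.45% of all measurable genes were that far higher. No measurable member was 1.5-fold lower, where 1.9% of all measurable genes were. With no floor 4 of the 258 members were 1.5-fold higher and 4 were 1.5-fold lower, against 4.25% and 3.1% of the 19938 genes. The higher 4 were Mir692-1, Mir17, Mir140 and Mir452, and the lower 4 were Mir100, Mir672, Mir301 and Mir449c. All of these but Mir692-1 lay below the floor, and these 7 were named after their values were seen.

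**Figure D1:**
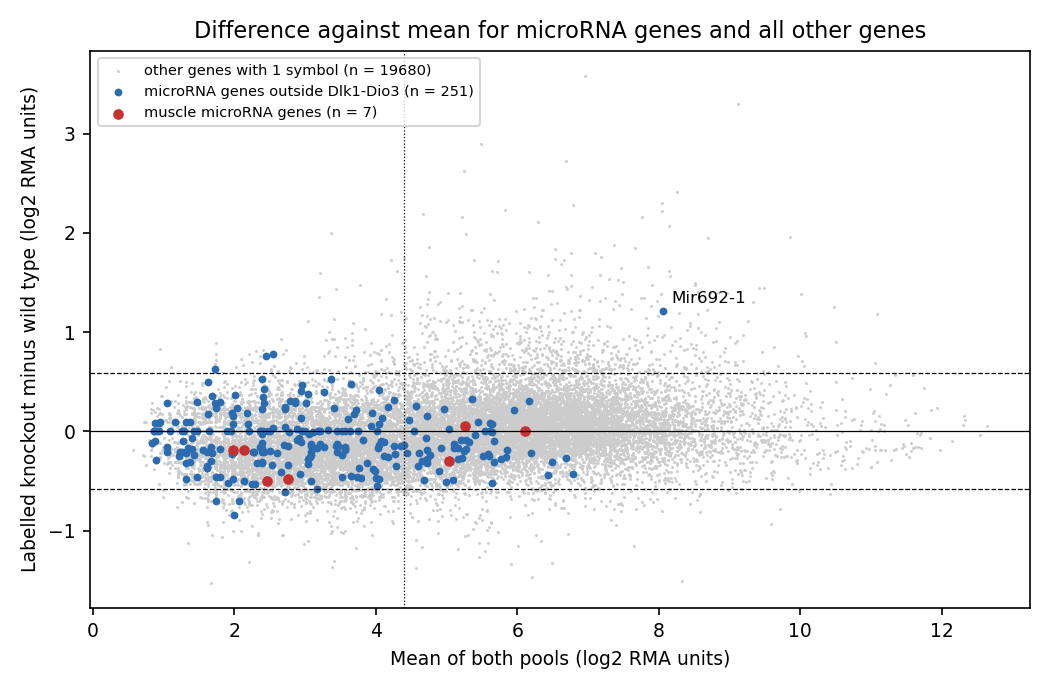
Difference (labelled knockout minus wild type, log2 RMA units) against the mean of both pools for every gene with 1 symbol, 1 point per gene. Dashed lines mark 1.5-fold, the dotted line marks the floor, and to its right Mir692-1 at 1.21 is the one blue or red point outside the dashed lines.

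The shift was compared at like expression, because differences in these arrays drift with the mean. Of the members 19 had a mean between the floor and 5 log2 units, with a median of -0.22, against -0.04 for other genes of that range. Between 5 and 6 the median was -0.15 over 32 members and 0.01 over the other genes. Between 6 and 7 it was -0.27 over 7 members and 0.07 over the other genes. Where the mean itself was under the floor the order turned: the median was -0.12 over 199 members and -0.16 over the other genes.

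Small nucleolar RNA genes, which guide the modification of ribosomal RNA, were added as other short RNA genes after their values were seen. The 33 measurable ones had a median of 0.00, with 15 lower and 16 higher and none past 1.5-fold in either direction. The 29 measurable Dlk1-Dio3 microRNA genes had a median of -0.53, with 28 lower and 13 past 1.5-fold lower. The measurable members thus read between these sets in their median, without a test of either gap. After removal of the trend with mean expression 47 of the 62 members were lower, with a median of -0.14, and 49.7% of all measurable genes were lower.

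**Figure D2:**
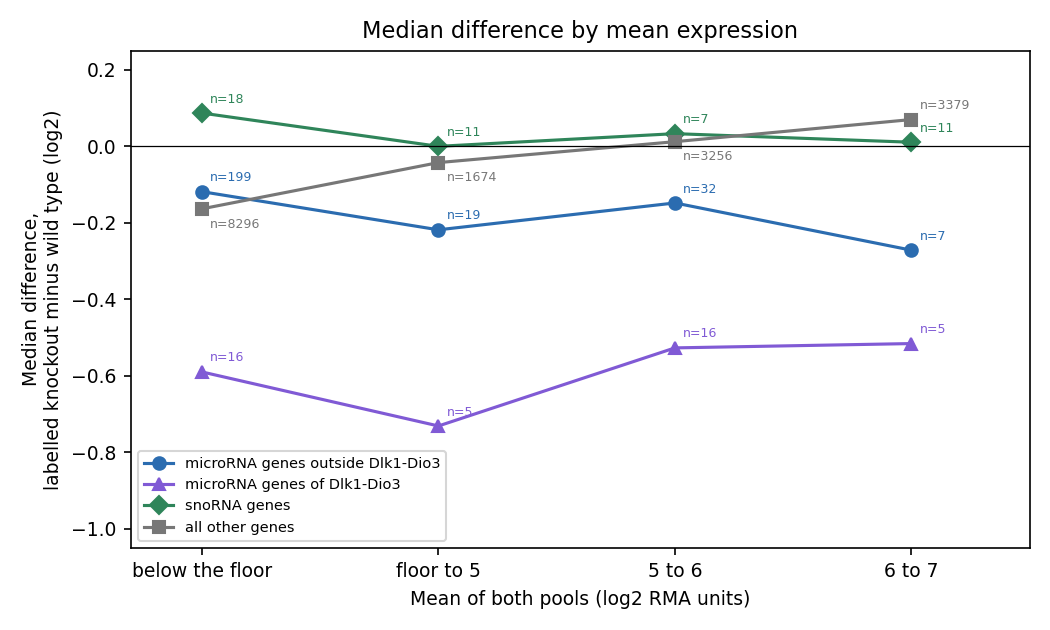
Median difference (log2) in 4 ranges of mean expression for microRNA genes outside Dlk1-Dio3, those of Dlk1-Dio3, snoRNA genes and all other genes, with the number of genes at each point. From the floor to 7 log2 units the members lie between -0.15 and -0.27 and the other genes between -0.04 and 0.07.

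The 7 muscle microRNA genes did not move past 1.5-fold. Mir1a-1, 1 of the genes for miR-1a, read 6.11 for wild type and 6.11 for the labelled knockout, a difference of 0.00. Its neighbour on chromosome 2, Mir133a-2, read 5.23 and 5.29, a difference of 0.05. Mir133a-1, the chromosome 18 copy of the same family, read 5.18 and 4.88, a difference of -0.29. These 3 were the measurable ones: 1 was equal, 1 slightly higher and 1 lower. Among the 500 genes of nearest mean, 67.0% differed by less than Mir133a-1 and 15.6% by less than Mir133a-2.

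The other 4 lay below the floor and read lower. Mir1a-2, which shares its locus with Mir133a-1, read 2.71 and 2.21, a difference of -0.50. Mir206, a microRNA gene of skeletal muscle that satellite cells use in differentiation, read 2.99 and 2.52, a difference of -0.48. Both stood among the larger differences at their level, above 89.0% and 86.8% of the 500 nearest genes. Mir208a read 2.07 and 1.88, and Mir499 read 2.23 and 2.05, each a difference of -0.19. Genes below the floor as a whole had a median of -0.16. The median of the 7 was -0.19, and it was -0.050 once the trend with mean expression was removed.

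The genes around them were read by their own probe sets. Myh7b, the myosin gene that hosts Mir499, read 4.63 and 4.24, a difference of -0.39. Myh6, the host of Mir208a and mainly a cardiac myosin, was below the floor at 3.55 and 3.65. Mib1, a ubiquitin ligase gene whose span holds Mir1a-2 and Mir133a-1 (strand was not compared), read 7.03 and 7.28, a difference of 0.25. Mir133b had no probe set of its own and shared 1 with Lincmd1, the long noncoding RNA of the same muscle locus, which read 6.03 and 6.36, a difference of 0.33. Mir206 and its chromosome 1 neighbour thus read in opposite directions, with Mir206 below the floor.

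Cell type markers were read beside the muscle members, of which the 3 measurable ones did not share a direction. All 12 fibre markers listed (such as Ckm, Acta1 and Myh4) read lower, with a median of -0.18 and 1 past 1.5-fold, and their summed linear level was 38589 in the wild type and 34644 in the labelled knockout pool. Of the 7 satellite cell markers 4 read higher and 3 lower, with a median of 0.00. The part of these cell types in the microRNA values was not tested. Mir378a, a muscle-rich microRNA in the Ppargc1b gene of energy metabolism, went the other way from the fibre markers at 4.44 and 4.69, a difference of 0.25. Ppargc1b differed by -0.08. Mir3107, which lies in the span of the Ank1 gene of muscle and red cells and was named after its values were seen, read 5.83 and 5.52, with Ank1 at 5.22 and 4.96. Strand was not compared for these pairs either.

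**Figure D3:**
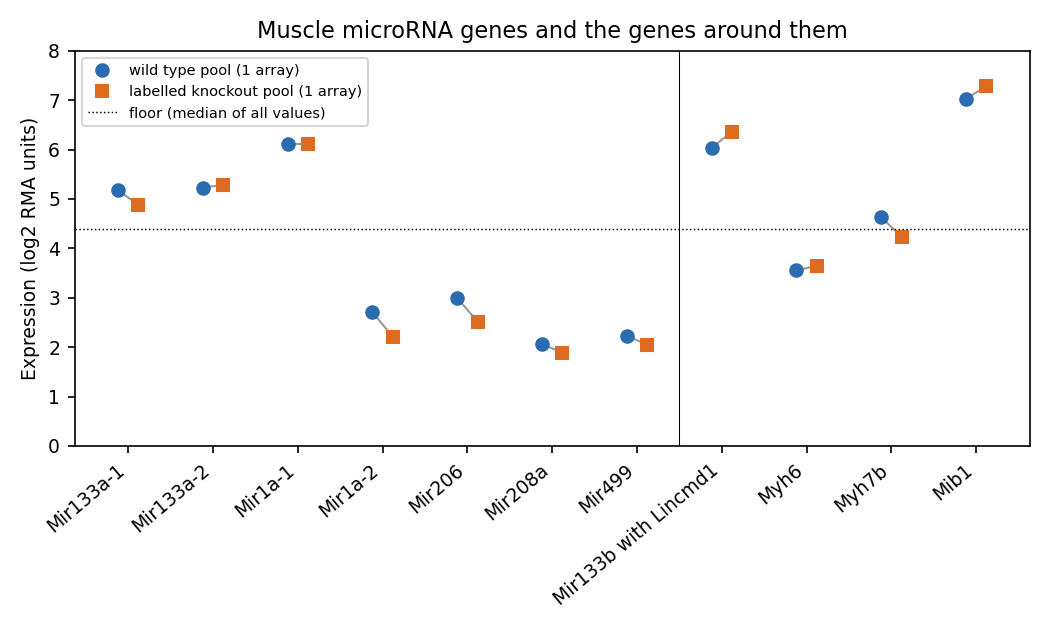
Expression (log2 RMA units) of the 7 muscle microRNA genes, of the probe set shared by Mir133b and Lincmd1, and of 3 genes that hold muscle microRNAs, 1 circle for the wild type pool and 1 square for the labelled knockout pool. Mir1a-1, Mir133a-1 and Mir133a-2 lie above the dotted floor, and the other 4 microRNA genes lie below it and read lower in the labelled knockout pool.

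Mir692-1 stood outside the range of the other members. It read 7.45 for wild type and 8.66 for the labelled knockout, a difference of 1.21 or 2.31-fold, larger than that of 97.6% of the 500 genes of nearest mean. The other Mir692 genes had no probe set of their own. They were listed together with Ftl1, the ferritin light chain gene that stores iron, on 4 probe sets that read higher by 0.75 to 0.92. Ftl1 by its own probe set read 9.59 and 10.56, a difference of 0.97, and Fth1, the ferritin heavy chain gene, read 11.02 and 11.39. Macrophage markers were higher in 12 of 12 genes with a median of 0.98 and 11 past 1.5-fold, and their summed linear level was 3706 and 7965. Whether ferritin RNA binds the Mir692-1 probes, and the part of macrophages in the value, was not tested.

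The rule for naming also took the members with the highest mean, which sets no order between genes. Mir320, a short hairpin cut without the usual Drosha step, read 7.00 and 6.56, a difference of -0.43. Mir598 read 6.65 and 6.21, a difference of -0.44. Mir346 read 6.82 and 6.55, and Mir187 read 6.65 and 6.34, differences of -0.27 and -0.31. Mir328 read 6.29 and 6.08. Mir210, the best known microRNA of the response to low oxygen, read 5.95 and 5.76, a difference of -0.19. All 6 were lower by less than 1.5-fold. The other 4 of these 10 were not lower: Mir692-1 differed by 1.21, Mir27a by 0.30, Mir23a by 0.22 and Mir1a-1 by 0.00.

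The largest lower differences at the floor were seen in members named after their values were seen. Mir99b read 5.90 and 5.39, a difference of -0.52 or 1.43-fold. Mir338 read 5.25 and 4.74, a difference of -0.51. Mir194-2 read 4.92 and 4.43, and Mir212, which CREB is known to induce in neurons, read 5.33 and 4.84, differences of -0.49 each. None of the 4 passed the limit.

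Let-7 genes, which restrain growth and rise as cells differentiate, split. Of 10 members with Mir98, 6 read lower and 4 higher, with a median of -0.10, and 4 were measurable. Mirlet7d read 4.77 and 4.42, Mirlet7i read 5.30 and 5.02, and Mirlet7e read 4.82 and 4.63, differences of -0.35, -0.27 and -0.18. Mirlet7c-1 read 4.10 and 4.42, a difference of 0.32, so that it alone of the 4 was higher and it reached the floor only in the labelled knockout pool. The 9 members listed with the seed GAGGUAG in the RefSeq microRNA table ran from -0.47 to 0.40 around a median of -0.18. Mirlet7a-2, which was not listed there with this seed, differed by 0.41.

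Families linked to the cell cycle read in several directions. The Mir15 and Mir16 family, which slows the cycle, had 5 of 6 members lower and a median of -0.12. Mir15a read 5.91 and 5.63, and Mir16-1 read 4.47 and 4.32, the measurable pair, though Mir16-1 reached the floor only in the wild type pool. The relatives of the Mir17 to Mir92 cluster, which drives proliferation, had 13 members with a median of 0.00, and Mir25, the only measurable one, read 5.32 and 5.23. Below the floor the 5 members of the Mir17 cluster itself differed by 0.00 to 0.78, 4 of them higher, and their host transcript Mir17hg differed by -0.50. Mir221 and Mir222, also below the floor, were higher by 0.24 and 0.14.

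Mir23a, Mir27a and Mir24-2 come from a shared transcript on chromosome 8. Mir27a read 6.02 and 6.32, a difference of 0.30, and Mir23a read 5.84 and 6.06, a difference of 0.22. Mir24-2 read 5.25 and 5.07, a difference of -0.17. The first pair made up 2 of the 15 higher measurable members. The Mir181 family, used in muscle differentiation and in lymphocytes, had 5 of 6 members lower and a median of -0.22. Its measurable members Mir181d and Mir181c differed by -0.25 and -0.11.

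Of the microRNA genes of blood and immune cells, 1 of 5 was measurable. Mir223 and Mir21, also listed for this group, were not among the members, so they were not examined. Mir150, a microRNA of mature lymphocytes, read 5.64 and 5.40, a difference of -0.25, and none of the 7 lymphocyte markers measured reached the floor. Mir142, specific to blood cells, read 3.41 and 3.88, below the floor, a difference of 0.47. Mir155, induced in activated macrophages, read 3.52 and 3.39, also below the floor. These immune members did not share a direction, whereas the macrophage markers given above were all higher. Of the 7 neutrophil markers 6 lay below the floor. The erythroid pair Mir144 and Mir451a were below the floor and differed by -0.16 and 0.00.

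MicroRNA genes of stromal and vessel cells read in both directions. Mir143 and Mir145a, neighbours that mark smooth muscle, read 4.55 and 4.33 for the first and 4.85 and 5.07 for the second, differences of -0.22 and 0.23. Smooth muscle and mural markers had a median of 0.07 over 6 measurable genes. Mir143 reached the floor only in the wild type pool. Mir199a-1, a mesenchymal microRNA, read 5.00 and 4.83, a difference of -0.17. Its relative Mir199b and the cartilage microRNA Mir140 were below the floor and differed by -0.31 and 0.76. Mir126a, the endothelial microRNA of the Egfl7 gene, lay below the floor and differed by 0.15, with endothelial markers at a median of -0.05. Mir29a and Mir29b-1, known to hold back collagen messages, were below the floor and higher by 0.50 and 0.29, while fibroblast markers had a median of 0.12. Members below the floor other than the muscle ones, and Mirlet7e, are named here and above as examples chosen after their values were seen.

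All 15 neural, epithelial and liver microRNA genes (such as Mir124a-2, Mir200b and Mir122) read lower, with a median of -0.21 and a range of -0.48 to -0.03. Only Mir375, a microRNA of pancreatic islets, was measurable, at 4.88 and 4.64. Of all genes below the floor 64.8% read lower, with a median of -0.16. With the trend with mean expression removed 12 of the 15 were lower and Mir124a-3, Mir9-1 and Mir9-3 were not. MicroRNA genes of other imprinted loci were near 0, with a median of 0.01 over 4, and Mir483 differed by -0.10, as did its host Igf2.

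**Figure D4:**
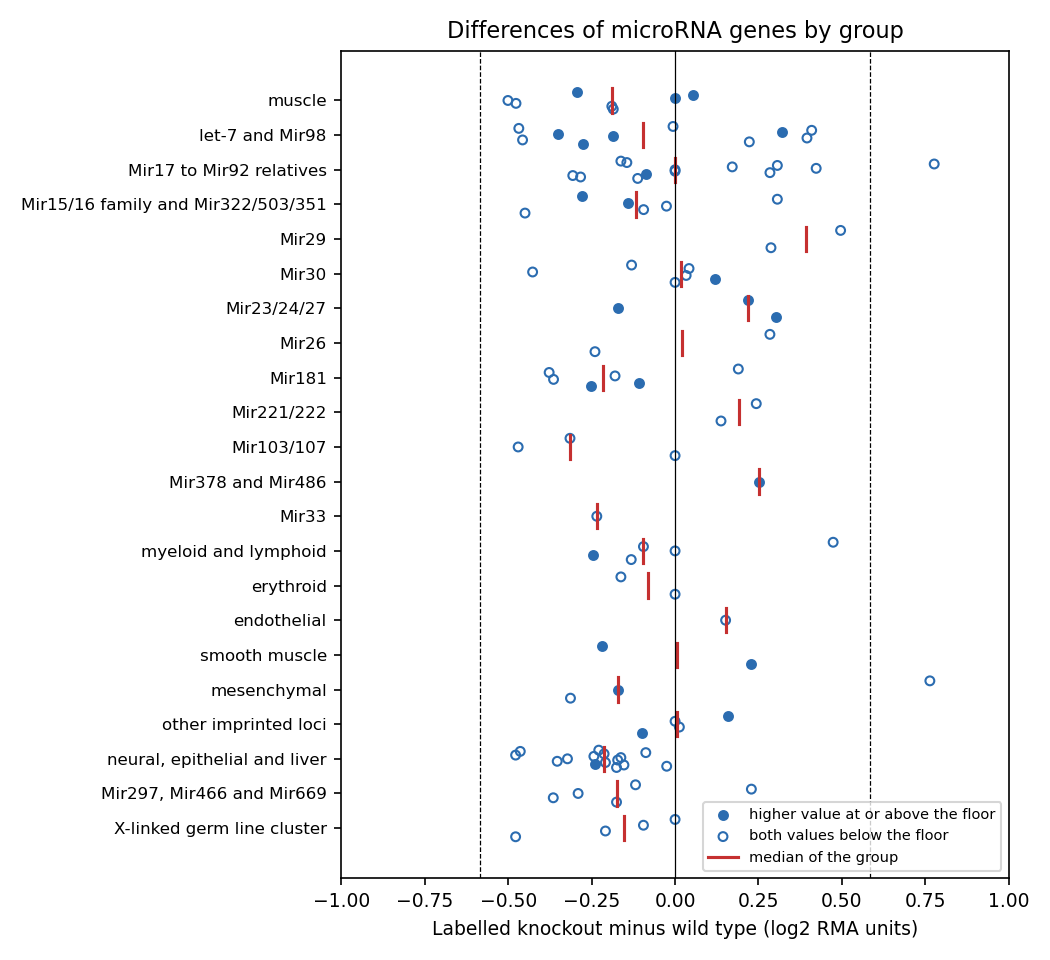
Difference (labelled knockout minus wild type, log2 RMA units) of each microRNA gene in 22 groups. Filled points reach the floor in at least 1 array, open points lie below it, red bars are group medians and dashed lines mark 1.5-fold; most points are open, and no filled one passes a dashed line (Mir692-1 belongs to none of these groups).

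Hairpins were then set beside the genes that hold them on the same strand, 88 pairs with 71 hosts. Across all pairs Pearson's r of the differences was 0.27 and Spearman's rho 0.18, and 43 of 73 pairs with nonzero values shared their sign. In the 16 pairs with a measurable member r was 0.53 and rho 0.53, and 14 pairs shared their sign, 12 of them lower in both. Where the host was measurable too, 13 pairs, r was 0.50 and rho 0.49. Of these 11 shared their sign, 9 of them lower in both. These correlations are across genes of the same 2 arrays, some pairs share a host, and probes of host and hairpin can read the same RNA, so they are a description with no test.

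Named pairs show the range, and they were chosen after their values were seen. Mir7-1 read 5.19 and 5.52, and its host Hnrnpk, a gene of an RNA-binding protein, differed by 0.24. Mir99b, Mirlet7e and Mir125a share Spaca6, a sperm membrane protein gene that read 5.10 and 4.94, a difference of -0.17. Mir338 lies in Aatk, a kinase gene that differed by -0.13. Mir185 differed by -0.23 against 0.18 for its host Tango2, 1 of the pairs that were opposite. Mir140, a cartilage microRNA below the floor at 2.06 and 2.83, lies in Wwp2, a ubiquitin ligase gene that read 5.76 and 6.38, a difference of 0.62. Hairpins in no gene had a median of -0.11 over 27 measurable members, and those within a gene on the same strand -0.16 over 18. Measurable hairpins whose gene lay on the opposite strand (such as Mir199a-1) or on a strand not compared (such as Mir149 and Mir378a) are in neither group.

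**Figure D5:**
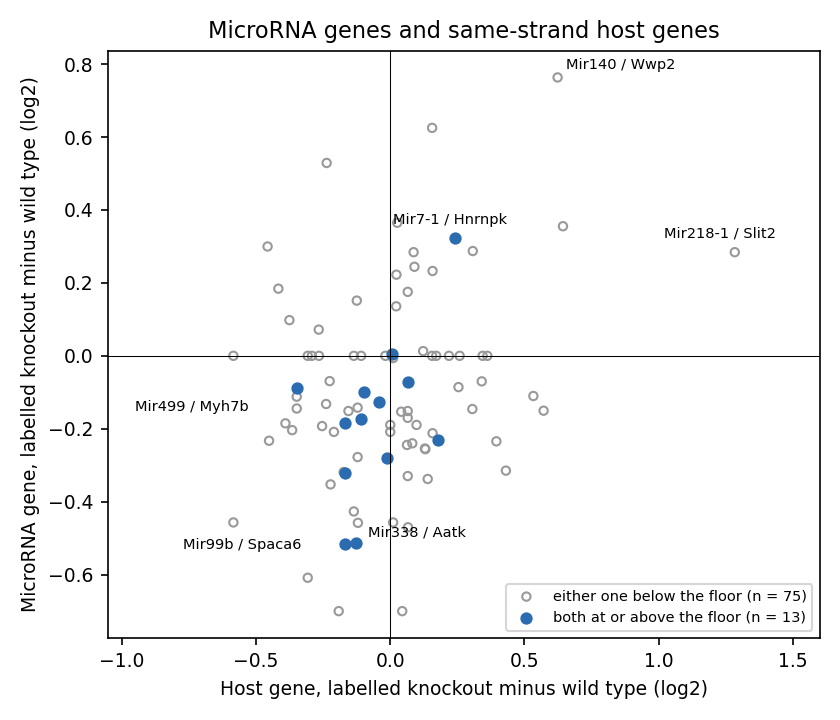
Difference of a microRNA gene against that of its host gene on the same strand (both labelled knockout minus wild type, log2), 1 point per pair. The 13 filled points, where both reach the floor, lie mostly at the lower left, and the open points, where at least 1 of the pair is below the floor, spread to all sides.

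Members within 10 kb of each other on a strand made 39 clusters of 97 members. Members without a strand in the RefSeq microRNA table were left out, so neighbours such as Mir143 and Mir145a are not counted as a cluster. Their differences were all lower in 14 clusters, all higher in 2 and of both signs in 12. The rest held at least 1 equal value beside values of a single sign. Of all 258 members 60.5% read lower. Every member reached the floor in only 5 of these clusters, and the range within a cluster had a median of 0.33. In the chromosome 17 cluster shown above, Mir99b, Mirlet7e and Mir125a differed by -0.52, -0.18 and -0.32. Mir99a and Mirlet7c-1 on chromosome 16 split, at -0.09 and 0.32. The widest cluster was Mir100 with Mirlet7a-2, at -0.85 and 0.41, both below the floor.

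Seeds grouped the members otherwise. The 3 genes with the seed ACCCGUA (Mir99a, Mir99b and Mir100) were all lower, from -0.09 to -0.85. Among 22 sets of genes with an identical mature form in the RefSeq microRNA table, 10 read in 1 direction, 9 in opposite directions and 3 held an equal value. Most of these sets had no copy at the floor, and among them only Mir365-1 and Mir365-2 were both measurable as a full set. The Mir1a and Mir133a copies are not among the sets, because that table lacks the mature forms they share. Mir133a-1 and Mir133a-2, both measurable, differed by -0.29 and 0.05. Mirlet7f-1 and Mirlet7f-2, which give the same let-7f, differed by 0.40 and -0.46 below the floor.

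Genes of the machinery that makes and uses microRNAs read higher more often than lower, as did measurable genes as a whole. Of 37 genes listed, 36 were measured and 35 reached the floor. Of these 24 were higher and 11 lower, where 6287 of the 11787 measurable genes were higher and 5245 lower. The median of the 35 was 0.11, against 0.03 over all measurable genes. With the trend with mean expression removed the median was 0.055. None passed 1.5-fold. Drosha, Dgcr8 and Dicer1, the cutting enzymes and their partner, differed by -0.07, -0.06 and -0.03, and the exporter Xpo5 by 0.13; these and Ago2 were named after their values were seen. Among the effectors, Ago1 read 5.99 and 6.39, a difference of 0.40, and Ago3 differed by 0.40 as well, and Ago2, the Argonaute that cuts targets, by 0.13. The exonuclease gene Xrn2 read 6.76 and 7.27, a difference of 0.51, and Snd1 differed by 0.41. Tarbp2, the partner of Dicer1, read 6.13 and 5.74, a difference of -0.38.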

How the data were processed

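RNA of 5 muscles per genotype was pooled and read on 1 Affymetrix array each, per the labels. The deposited values are log2 expression; the submitters' processing notes name RMA and Affymetrix Expression Console, with no version. RMA equalizes the distributions, so a change shared by most RNAs cannot be seen. Of 35557 probe sets 21789 carried 1 symbol in the platform annotation, and the probe set with the highest mean stood for a symbol. Differences, a floor at the median of all values and a limit of 1.5-fold were computed with pandas 2.3.3, numpy 2.4.6 and Python 3.11.15; the loess trend (span 0.3) used statsmodels 0.14.6 and the plots matplotlib 3.10.9. Counting was tested on simulated data. Hosts, clusters and seeds came from RefSeq tables of GRCm38.p6. All 258 members were found by gene ID in the gene table. Only 229 were found in the microRNA table, which gave the strands and seeds of members. Without replicates there is no test, and the number of arrays limits the precision.

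The members and gene lists were chosen with earlier results of these data known. Genes named were the muscle microRNA genes, measurable members past 1.5-fold, the 10 with the highest mean, up to 3 measurable members per group with the largest difference, their hosts and the 5 measurable processing genes with the largest difference; other members were chosen after their values were seen.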

Additional observations from a re-analysis of the deposited data

Results flagged for a closer look

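Probe sets with several symbols were outside the comparison, and 5 of them with a microRNA symbol passed 1.5-fold at the floor, which is why they are given here. Mir692-3, Mir692-2 and Ftl1 share 4 of them, which differed by 0.92, 0.75, 0.92 and 0.90. The fifth, of Lncppara and Mirlet7c-2, read 5.34 for wild type and 4.73 for the labelled knockout, lower by 1.5-fold or more with a difference of -0.61. In all 59 probe sets listed a microRNA beside another symbol, 25 of them with 1 microRNA symbol, and 20 of the 59 reached the floor. Which of the symbols gave the signal was not tested.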

How the results depend on the processing

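Of 39 planned values recomputed for the counts and medians, 35 kept their direction and their size within the limits set. Some of the 35 could not have moved, so that count does not measure stability. The muscle median takes its 7 genes at any floor. Leaving out the chromosome 12 neighbours drops only Mir203, which lay below the floor. With no floor the members past 1.5-fold were 4 higher, against 1, and 4 lower, against 0. With probe sets of several symbols but 1 microRNA symbol added, which brought in 23 genes, 1 was 1.5-fold lower. The 4 probe sets of Mir692-3, Mir692-2 and Ftl1 list 2 microRNA symbols and were not added. These were 1.5-fold higher or more. The median of the muscle microRNA genes was -0.050 with the loess trend removed, against -0.19. Most of these genes lay below the floor, where genes as a whole had a median of -0.16 before that step. The median of the measurable members ran from -0.27 with a floor at the 75th percentile, which leaves 7 members, to -0.14. Of 34 named genes none changed sign past 1.5-fold, but only Mir692-1 was that far apart in any setting. With the loess trend removed 5 moved: Mirlet7c-1 and the muscle members Mir1a-2, Mir206, Mir208a and Mir499, which lay below the floor. No paired analysis was possible because each genotype has 1 array and no replicate number. The median of the processing genes was 0.055 with the loess trend removed, against 0.11. Low signal and single arrays limit these values: 196 of 258 members lay below the floor, and no difference has a replicate. Mir713 had 3 probe sets that differed by -0.55, 0.53 and -0.23, all below the floor, which shows how far repeat readings of a gene can part there. The only other member with several probe sets was the host transcript Mir99ahg. Its measurable probe sets differed by 0.00 and 0.28, and those below the floor by -0.07 and 0.28.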

Other observations

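Exact ties were common among microRNA genes. In 31 of 258 members (12.02%) both arrays held equal values, against 5.92% of all genes, and a difference of -0.2087 came back in 9 members and 136 genes. Most of the equal members, 28 of 31, lay below the floor, where 14.3% of the members and 11.4% of all genes were equal.

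Other gene groups lay mostly below the floor. The Sfmbt2 cluster of chromosome 2, active in the placenta, had 3 of 4 members lower with a median of -0.23. The X-linked cluster of the male germ line had 3 of 4 lower and 1 equal, with a median of -0.15. Of Mir103 and Mir107, which lie in pantothenate kinase genes, 2 of 3 were lower and 1 equal, with a median of -0.31, against -0.16 for all genes below the floor, and Mir103-2 read 4.24 and 3.77. Mir30 genes were near 0, with a median of 0.02 over 6, of which Mir30d alone was measurable at 4.41 and 4.53.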
